A study of Mus musculus with 36 samples.

Results

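The 10 genes followed here mark microglia and were read on 36 arrays of mouse brain RNA: Cx3cr1, Csf1r, Aif1, Itgam, P2ry12, Tmem119, C1qa, C1qb, C1qc and Ctss. They were chosen by gene symbol, with earlier results of these data known. They are 10 of the 30854 gene symbols on the array, measured by 14 of its 45281 probes. The samples came from adult male C57BL/6J mice, bought at 10 weeks of age and acclimated for 1 week, that received 10 daily intraperitoneal injections and were killed 1 hour after the last. Vehicle mice received the solvent mixture alone, and the treated mice received 45 mg/kg Cpd-60, 25 mg/kg SAHA or 10 mg/kg CI-994. All 3 compounds inhibit histone deacetylases (HDACs), the enzymes that remove acetyl groups from histone tails; Cpd-60 is a benzamide selective for HDAC1 and HDAC2, CI-994 is a benzamide inhibitor of class I HDACs, and SAHA is a hydroxamic acid. Hippocampus (HIP), nucleus accumbens (NAc) and prefrontal cortex (PFC) were dissected from every mouse, and RNA of 2 mice was pooled for each array, so each of the 12 groups of treatment and region held 3 pools and the 3 regions of a treatment came from the same pairs of mice. The comparisons ask whether the level of microglial transcripts differed between the 3 regions and between each drug and vehicle. No array measured sorted cells: in whole tissue, fewer microglia and less RNA per microglial cell cannot be told apart.

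Microglia are the resident macrophages of the brain and live in close contact with neurons, whose debris and synapses they take up. Cx3cr1 is the receptor for fractalkine (Cx3cl1), a chemokine that neurons display, and Csf1r is the receptor for Csf1 and Il34, the growth factors on which microglia depend for survival. P2ry12 senses ADP and steers microglial processes towards damage, Tmem119 is a surface protein widely used to tell microglia from other macrophages, Itgam is the integrin chain CD11b, and Aif1 encodes the calcium-binding protein Iba1. C1qa, C1qb and C1qc encode the chains of C1q, which starts the classical complement cascade, and Ctss encodes cathepsin S, a lysosomal cysteine protease of antigen-presenting cells. Microglial gene programmes depend on the ETS factor PU.1, which binds purine-rich sites with a GGAA core.

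Promoter sequence was listed for 7 of the 10 genes, all but C1qa, Csf1r and Tmem119, and the 250 bases before the annotated start (RefSeq, mouse build GRCm38.p6) are printed for 4 of them, since the first 3 hold AGGAAGT, a longer run of letters around that core, and Cx3cr1, which had the lowest drug value, does not. Each is written 5′ to 3′ on the strand of its gene, with AGGAAGT, or ACTTCCT where the motif lies on the opposite strand, in capitals. The P2ry12 window lies on the minus strand at chr3:59262986-59263235, with the motif ending 46 bases before the start. The C1qb window is at chr4:136886201-136886450 and the C1qc window at chr4:136892915-136893164, both on the minus strand, with the motif on the opposite strand ending 47 and 189 bases before the start. The Cx3cr1 window is at chr9:120068297-120068546 on the minus strand.
P2ry12: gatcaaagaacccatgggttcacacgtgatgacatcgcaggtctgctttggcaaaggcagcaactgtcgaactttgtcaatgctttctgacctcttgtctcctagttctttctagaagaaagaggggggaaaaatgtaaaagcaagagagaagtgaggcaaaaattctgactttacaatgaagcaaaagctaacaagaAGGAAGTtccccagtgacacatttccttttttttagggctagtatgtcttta
C1qb: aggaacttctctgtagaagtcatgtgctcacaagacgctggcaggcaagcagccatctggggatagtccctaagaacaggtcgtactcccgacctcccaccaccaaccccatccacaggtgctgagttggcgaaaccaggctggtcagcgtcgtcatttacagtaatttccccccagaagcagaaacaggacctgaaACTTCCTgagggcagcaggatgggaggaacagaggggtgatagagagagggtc
C1qc: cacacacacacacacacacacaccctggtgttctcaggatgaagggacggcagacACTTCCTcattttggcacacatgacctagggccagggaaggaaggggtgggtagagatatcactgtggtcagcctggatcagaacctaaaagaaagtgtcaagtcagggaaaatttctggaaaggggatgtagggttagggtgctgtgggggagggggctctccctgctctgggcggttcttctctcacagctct
Cx3cr1: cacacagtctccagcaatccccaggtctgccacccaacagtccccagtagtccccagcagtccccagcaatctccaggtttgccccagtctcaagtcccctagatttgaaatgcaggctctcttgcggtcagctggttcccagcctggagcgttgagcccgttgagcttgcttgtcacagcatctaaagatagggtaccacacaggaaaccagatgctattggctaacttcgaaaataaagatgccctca

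Searched on both strands from 250 bases before to 50 after the start, AGGAAGT was present in 4 of the 7 listed promoters (P2ry12, C1qb, C1qc and Ctss, where it crosses the start) and in 9.35% of 32851 promoters. The longer GAGGAAGT, which contains the shorter motif, was present in 2 of the 7 (C1qc and Ctss) and in 3.2% of all promoters. A match of these letters is a description and shows no binding. C1qa, C1qb and C1qc are neighbours in the genome.

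The median raw intensity of the arrays ran from 82.2 to 108.3, and 31.9% to 43.3% of probes were detected (detection p-value at most 0.01). The 95th percentile of raw intensity ran from 349.9 to 1079.7, and both extremes were Cpd-60 pools of NAc, pool 1 and pool 3. In HIP the SAHA arrays had 34.3%, 32.1% and 32.3% of probes detected, below the other HIP arrays at 37.3% to 39.7%. The 95th percentile of SAHA pools 2 and 3 in HIP was 437.7 and 452, against 593.6 to 850.1 under the other treatments. The part of this weaker signal in the SAHA values of HIP was not tested. Region markers followed the labels under vehicle, with 7 of 7 striatal genes higher in NAc than in PFC (median log2 difference 3.44) and 3 of 3 tested cortical genes lower in NAc and in HIP than in PFC. HIP also held more oligodendrocyte RNA than PFC (6 of 6 genes called higher, median log2 difference 1.26) and more choroid plexus RNA (4 of 4 genes). Each Illumina BeadChip, the slide on which arrays are made, held 6 arrays of 1 region, so region and BeadChip cannot be told apart, and 2 BeadChips shared each region. In each region vehicle and Cpd-60 had 2 pools on BeadChip 1 and 1 on BeadChip 2, whereas SAHA and CI-994 had 1 and 2. In NAc the BeadChips differed at 22.9% of probes, against 0.144% in PFC and 1.19% in HIP (limma, adjusted p under 0.05). Within-BeadChip values are therefore given beside several results.

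Microglial transcripts were measured in every region, though not by every probe. For 7 genes, Cx3cr1, Csf1r, Tmem119, Aif1, C1qa, C1qb and C1qc, the main probe was detected on 36 of 36 arrays. Ctss was detected on 19 arrays and P2ry12 on 17, most of them from HIP and NAc, and Itgam on 1, so Itgam was not well above background on almost all arrays (log2 6.46 to 6.74). The filter on dim probes left 7 members for the tests in PFC (without Itgam, P2ry12 and Ctss), 9 in NAc (without Itgam), 10 in HIP, 9 between regions under vehicle and 7 in models of all 36 arrays. Levels are log2 of quantile-normalized intensity with no background subtracted, which compresses differences of dim probes, so for members past an unadjusted p of 0.05 in a region comparison the difference after background correction (neqc) is given where it is over 1.5 times as large.

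**Figure D1:**
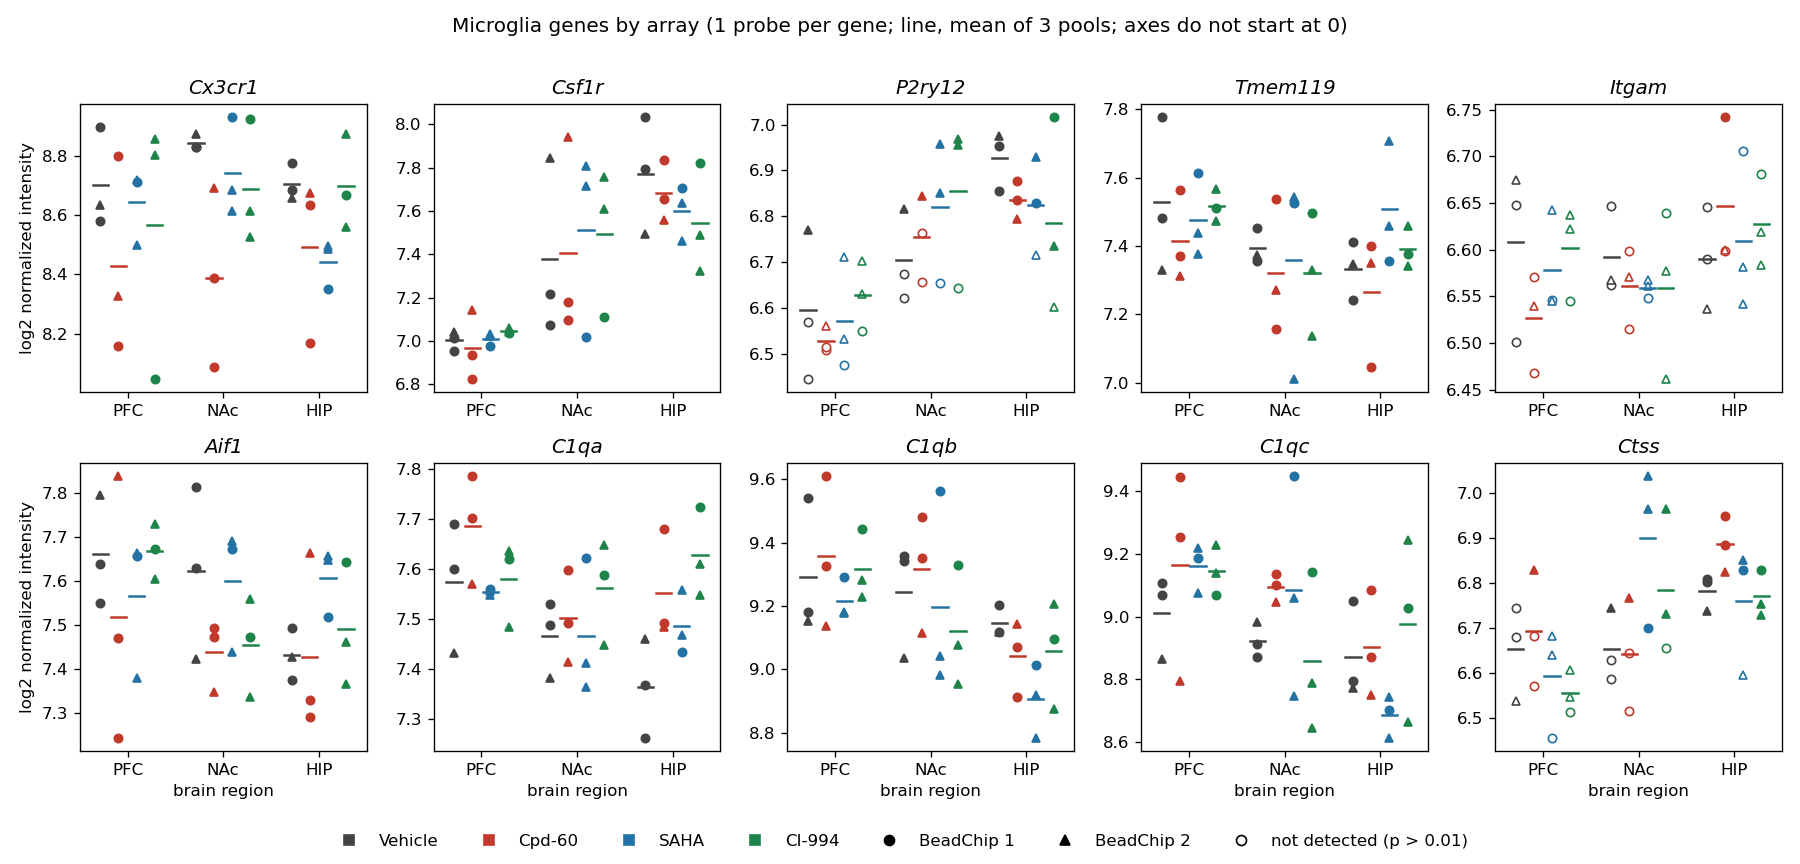
Log2 normalized intensity (y axis, which does not start at 0) of the main probe of each of the 10 genes in each pool of PFC, NAc and HIP (x axis), coloured by treatment, with circles for BeadChip 1, triangles for BeadChip 2, open symbols for arrays where the probe was not detected and lines for the mean of 3 pools. Csf1r in NAc splits by BeadChip, and Cx3cr1 under Cpd-60 in NAc lies below the 3 vehicle pools.

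Under vehicle, 2 of the 9 tested members differed between HIP and PFC, both higher in HIP, beside 27.3% of all probes tested (limma, adjusted p under 0.05). Csf1r read 8.03, 7.79 and 7.49 in the 3 HIP pools against 6.95, 7.01 and 7.04 in PFC. The groups did not overlap, and the difference was 0.77 (SE 0.19, 95% confidence interval 0.35 to 1.19, adjusted p = 0.0135), or 1.43 after background correction. In the same mice HIP minus PFC was 1.08, 0.78 and 0.45. P2ry12 read 6.95, 6.86 and 6.97 in HIP, where all 3 pools were detected, and 6.57, 6.45 and 6.77 in PFC, where 1 pool was. The P2ry12 difference was 0.33 (95% confidence interval 0.13 to 0.53, adjusted p = 0.0210) and 0.93 after background correction. P2ry12 did not pass the filter on dim probes in PFC and entered through NAc and HIP, so the filter favoured this direction and the difference is against a level near background.

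Neither call held under every check. With BeadChip as a random block P2ry12 gave 0.32 with an adjusted p of 0.0559. Without vehicle pool 1 the adjusted p was 0.131 for Csf1r and 0.207 for P2ry12, without vehicle pool 2 it was 0.185 and 0.159, and without vehicle pool 3 both were called (adjusted p = 3.59e-06 and 0.00153). The other probe of each gene gave no call: -0.11 for Csf1r (95% confidence interval -0.36 to 0.13) and 0.08 for P2ry12 (-0.08 to 0.23), the latter probe being detected on 1 of 36 arrays.

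The other members lay close together in the 3 regions under vehicle. Cx3cr1 read 8.90, 8.58 and 8.63 in PFC, 8.83, 8.83 and 8.87 in NAc and 8.69, 8.78 and 8.66 in HIP, so by mean the order was NAc, HIP, PFC. The HIP pools lay below all NAc pools (-0.14, 95% confidence interval -0.32 to 0.05, adjusted p = 0.297), and HIP minus PFC was 0.00 (-0.18 to 0.19). Tmem119 was highest in PFC at 7.48, 7.78 and 7.33, followed by 7.36, 7.45 and 7.37 in NAc and 7.41, 7.24 and 7.35 in HIP, with overlapping pools. HIP minus PFC for Tmem119 was -0.20 (95% confidence interval -0.43 to 0.04), and it was -0.03 without vehicle pool 2 and -0.30 without vehicle pool 3, where it was called (adjusted p = 0.0335). Aif1 read 7.55, 7.64 and 7.80 in PFC, 7.82, 7.63 and 7.42 in NAc and 7.49, 7.38 and 7.43 in HIP. HIP pools of Aif1 lay below all PFC pools (difference -0.23, unadjusted p = 0.0468, adjusted p = 0.122, or -0.38 after background correction), while its second detected probe gave 0.07 (95% confidence interval -0.12 to 0.26).

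The C1q chains were each lowest in HIP by mean, with no call. C1qa read 7.69, 7.60 and 7.43 in PFC, 7.49, 7.53 and 7.38 in NAc and 7.37, 7.26 and 7.46 in HIP, a HIP minus PFC difference of -0.21 (95% confidence interval -0.40 to -0.02, unadjusted p = 0.0300, adjusted p = 0.0886), or -0.37 after background correction. C1qb read 9.54, 9.18 and 9.15 in PFC and 9.12, 9.20 and 9.12 in HIP (-0.15, 95% confidence interval -0.41 to 0.11). C1qc read 9.11, 9.07 and 8.86 in PFC and 9.05, 8.79 and 8.77 in HIP (-0.14, 95% confidence interval -0.35 to 0.06). Pools of the regions overlapped for all 3 chains. Without vehicle pool 3, C1qa was called lower in HIP than in PFC (-0.33, adjusted p = 0.00460). Ctss read 6.81, 6.80 and 6.74 in HIP and 6.68, 6.74 and 6.54 in PFC, where it was not well above background in any vehicle pool. It entered the test through HIP. With PFC values set to no less than the lowest detected signal, the HIP mean was 1.03-fold higher, with overlapping pools and no call (limma, adjusted p = 0.215).

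NAc was not separated from PFC or from HIP by any of the 9 members (limma, adjusted p under 0.05), beside 20.8% and 17.9% of all probes. At an unadjusted p under 0.05 there were 0 members for NAc against PFC and 1 for HIP against NAc, P2ry12 (0.22, 95% confidence interval 0.02 to 0.42, unadjusted p = 0.0315; 0.68 after background correction). Csf1r in NAc read 7.07, 7.22 and 7.84, and the third vehicle pool was on the other BeadChip; without it, Csf1r, P2ry12 and Aif1 were called between HIP and NAc (0.77, 0.25 and -0.29).

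Averaged over the 4 treatments, which gave 12 arrays a region, Csf1r was higher in HIP than in PFC by 0.64 (95% confidence interval 0.43 to 0.86, adjusted p = 7.56e-06) and 2 C1q chains were lower, C1qb by -0.26 (adjusted p = 0.00269) and C1qc by -0.26 (adjusted p = 0.00559): 3 of 7 members beside 55.8% of all probes. Between NAc and PFC, 2 of 7 were called beside 50.3% of probes, Csf1r at 0.44 (adjusted p = 0.000877) and C1qa at -0.10 (adjusted p = 0.0434). Between HIP and NAc, 1 of 7 was called beside 41% of probes, C1qb at -0.18 (adjusted p = 0.0401). The other Csf1r probe gave -0.09, -0.12 and 0.03 in these 3 comparisons, with no call. These fits include the vehicle arrays of the comparisons above and held the pool of mice as a random block, since regions came from the same mice.

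**Figure D2:**
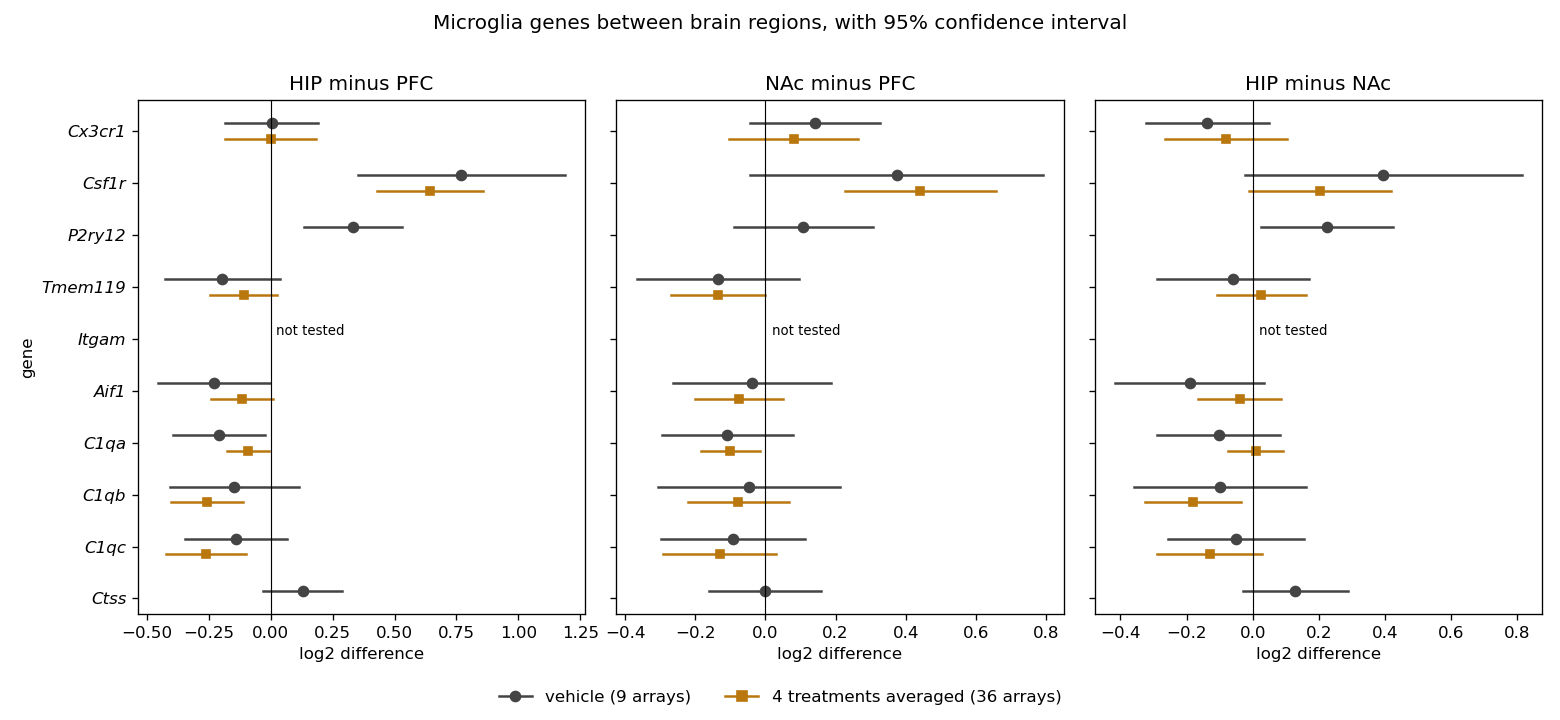
Log2 difference between regions (x axis) for each gene (y axis), as points with 95% confidence intervals, in the 9 vehicle arrays and averaged over the 4 treatments (36 arrays). Csf1r is the member farthest from 0 in HIP minus PFC, at 0.77 under vehicle and 0.64 over the 4 treatments.

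The Csf1r difference thus rested on 1 of its 2 probes, and in NAc these probes differed between the BeadChips in opposite directions. Each BeadChip also held different pools of mice, so the BeadChip and its pools cannot be told apart. Between the BeadChips in NAc, 4 of 9 members were called beside 22.9% of all probes: the main Csf1r probe was higher on BeadChip 2 by 0.70 (adjusted p = 3.77e-06), P2ry12 by 0.22 (adjusted p = 0.00592) and Ctss by 0.20 (adjusted p = 0.0188), and C1qb was lower, at -0.37 (adjusted p = 0.000501). On BeadChip 1 the main Csf1r probe read 7.02 to 7.22 over 6 NAc arrays and on BeadChip 2 it read 7.61 to 7.94, with no overlap. The other Csf1r probe, detected on all 36 arrays, was lower on BeadChip 2 by -0.36 (adjusted p = 0.000761). No member was called between the BeadChips of PFC (0 of 7) or HIP (0 of 10); for the main Csf1r probe in HIP the difference was -0.30 (adjusted p = 0.0795). The part of the BeadChip in the region differences was not tested.

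**Figure D3:**
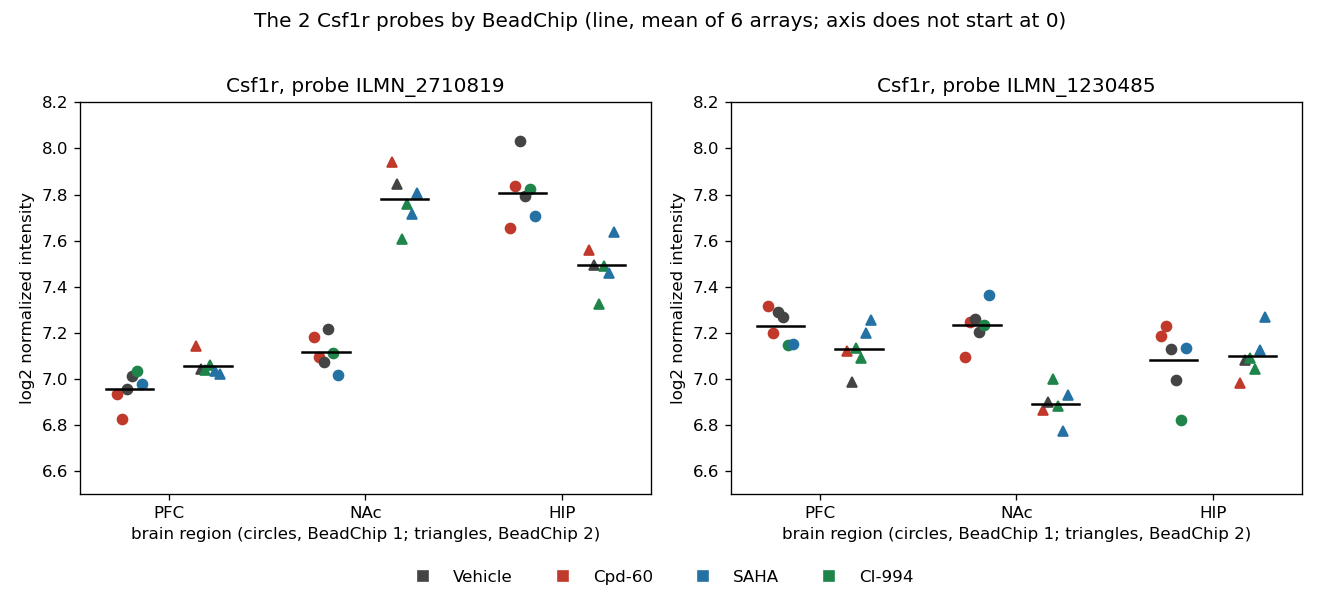
Log2 normalized intensity (y axis, which does not start at 0) of the main (left) and other (right) Csf1r probe on each array of PFC, NAc and HIP (x axis), with circles for BeadChip 1, triangles for BeadChip 2, colours for treatment and lines for the mean of 6 arrays. In NAc the main probe is higher by 0.70 and the other lower by 0.36 on BeadChip 2.

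No microglial gene passed the adjusted test in any of the 9 comparisons of a drug with vehicle, and no probe on the array did (limma, 0 of 7 members in PFC, 0 of 9 in NAc and 0 of 10 in HIP; 0% of all probes for each drug in each region). At an unadjusted p under 0.05, PFC held 0 of 7 members for Cpd-60, SAHA and CI-994, beside 5.19%, 2.25% and 3.98% of all probes. NAc held 1 of 9 for Cpd-60 (Cx3cr1, lower) and 1 for SAHA (Ctss, higher), beside 4.77% and 2.05%, and 0 for CI-994, beside 1.99%. HIP held 1 of 10 for Cpd-60 (C1qa, higher), 1 for SAHA (C1qb, lower) and 1 for CI-994 (C1qa, higher), beside 5.26%, 9.37% and 3.24%. By the methods' analysis of variance with Tukey's test, 1 of these 5 passed an unadjusted p of 0.05, C1qa under CI-994 in HIP. The median difference over the tested members lay between -0.06 and 0.03 in the 9 comparisons, beside -0.01 to 0.00 over all probes. Drugs in 1 region share its vehicle arrays, and the doses differ between drugs.

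Cx3cr1, the fractalkine receptor, held the lowest drug value of any member. In NAc, where vehicle read 8.83, 8.83 and 8.87, Cpd-60 read 8.39, 8.09 and 8.69. All 3 Cpd-60 pools lay below all vehicle pools, with a difference of -0.46 (SE 0.15, 95% confidence interval -0.79 to -0.12, unadjusted p = 0.0118, adjusted p = 0.999). Within BeadChip 1, with 2 pools a group, it was -0.59, and within BeadChip 2, with 1 pool a group, -0.18. In PFC Cpd-60 read 8.80, 8.16 and 8.33 against 8.90, 8.58 and 8.63 under vehicle, and in HIP 8.63, 8.17 and 8.68 against 8.69, 8.78 and 8.66. Those pools overlapped, with differences of -0.27 (95% confidence interval -0.71 to 0.16) and -0.21 (-0.48 to 0.05). The second Cpd-60 pool, of the same mice throughout by title though not by description, was the lowest in each region.

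Under SAHA, Cx3cr1 in HIP read 8.35, 8.49 and 8.48, below all vehicle pools, with a difference of -0.26 (95% confidence interval -0.53 to 0.00, unadjusted p = 0.0522, adjusted p = 0.534). SAHA values in PFC (8.71, 8.72 and 8.50) and NAc (8.93, 8.61 and 8.69) overlapped with vehicle, at -0.06 and -0.10. CI-994 read 8.05, 8.85 and 8.80 in PFC, 8.93, 8.61 and 8.53 in NAc and 8.67, 8.87 and 8.56 in HIP, with differences of -0.13, -0.16 and -0.01. The PFC pool at 8.05 was the lowest Cx3cr1 value of the 36 arrays.

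Averaged over the 3 regions, a comparison added after the values had been seen, Cx3cr1 under Cpd-60 was at -0.31 (SE 0.10, 95% confidence interval -0.52 to -0.10, unadjusted p = 0.00474, adjusted p = 0.184). The fit counted arrays of the same pool almost as independent (correlation within a pool -0.005), so its p may overstate the evidence. The second Cpd-60 pool weighed on the average. Without it the average was -0.17 (unadjusted p = 0.104, adjusted p = 0.752), whereas without the third Cpd-60 pool it was -0.38 and was called (adjusted p = 0.0415). In NAc alone, the difference was -0.30 without the second pool (unadjusted p = 0.0534) and -0.60 without the third (unadjusted p = 0.00143, adjusted p = 0.335). Over the 3 regions Cx3cr1 was at -0.14 under SAHA (95% confidence interval -0.35 to 0.07) and at -0.10 under CI-994 (-0.31 to 0.11).

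C1qa, a chain of the complement starter C1q, had the highest difference of the 10 members in HIP under CI-994 and under Cpd-60. Vehicle read 7.37, 7.26 and 7.46, CI-994 read 7.72, 7.55 and 7.61, Cpd-60 read 7.68, 7.49 and 7.48, and SAHA read 7.43, 7.47 and 7.56. CI-994 and Cpd-60 pools all lay above the vehicle pools, while SAHA pools overlapped with them. The differences were 0.26 for CI-994 (95% confidence interval 0.10 to 0.43, unadjusted p = 0.00499, adjusted p = 1.00), 0.19 for Cpd-60 (0.02 to 0.36, unadjusted p = 0.0306, adjusted p = 0.926) and 0.12 for SAHA (-0.04 to 0.29). After background correction they were 0.46, 0.33 and 0.22. Within BeadChips 1 and 2 the difference was 0.41 and 0.12 for CI-994 and 0.27 and 0.02 for Cpd-60. For Cpd-60 the unadjusted p exceeded 0.05 without its first pool (difference 0.13, limma unadjusted p = 0.141), vehicle pool 1 (0.19, unadjusted p = 0.0574) or vehicle pool 2 (0.14, unadjusted p = 0.127). For CI-994 it ran from 0.00329 to 0.0270 with each pool left out.

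In PFC C1qa differed from vehicle by 0.11, -0.02 and 0.01 and in NAc by 0.04, -0.00 and 0.10 for Cpd-60, SAHA and CI-994, all with overlapping pools. Averaged over the regions it was at 0.12 under CI-994 (95% confidence interval 0.03 to 0.22, unadjusted p = 0.0153, adjusted p = 0.970), at 0.11 under Cpd-60 (0.02 to 0.21, unadjusted p = 0.0245, adjusted p = 0.362) and at 0.03 under SAHA (-0.06 to 0.13). For Cpd-60 this average was 0.07 (limma unadjusted p = 0.171) without Cpd-60 pool 1, and the unadjusted p also exceeded 0.05 without Cpd-60 pool 2 (0.0524), vehicle pool 2 (0.0507) or vehicle pool 3 (0.0843). For CI-994 it exceeded 0.05 without CI-994 pool 1 (0.0976) or vehicle pool 3 (0.0574).

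The lowest C1q values came from the other chains under SAHA. C1qb in HIP read 9.01, 8.92 and 8.78 under SAHA against 9.12, 9.20 and 9.12 under vehicle, below all vehicle pools, with a difference of -0.24 (95% confidence interval -0.44 to -0.04, unadjusted p = 0.0238, adjusted p = 0.515). Without the third SAHA pool it was -0.18 (unadjusted p = 0.101), and without vehicle pool 2 it was -0.21 (unadjusted p = 0.0741). The SAHA arrays of HIP had the fewest probes detected in that region, and the part of this in the C1q values was not tested. C1qb under Cpd-60 and CI-994 in HIP was at -0.10 and -0.09, with overlap. C1qc under SAHA in HIP also lay below all vehicle pools, at 8.70, 8.74 and 8.61 against 9.05, 8.79 and 8.77, a difference of -0.19 (95% confidence interval -0.48 to 0.11). In NAc C1qc under Cpd-60 lay above them, at 9.14, 9.10 and 9.05 against 8.91, 8.87 and 8.98 (0.17, 95% confidence interval -0.19 to 0.53). The other differences of C1qb and C1qc ran from -0.12 to 0.16, and their pools overlapped with vehicle.

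Ctss, the lysosomal protease, was at its highest level in NAc under SAHA, at 6.70, 6.96 and 7.04 against 6.63, 6.59 and 6.74 under vehicle. The first SAHA pool lay within the vehicle range, and the difference was 0.25 (95% confidence interval 0.01 to 0.49, unadjusted p = 0.0461, adjusted p = 1.00), or 0.73 after background correction. Of the vehicle pools 1 was detected, and of the SAHA pools 3. The filter on dim probes thus favoured this direction, and the difference is against a level near background. With BeadChip as a block it was 0.18, and within BeadChips 1 and 2 it was 0.09 and 0.26, with the 2 higher SAHA pools on the BeadChip where Ctss read higher. The unadjusted p exceeded 0.05 without SAHA pool 2 (0.22, unadjusted p = 0.119), SAHA pool 3 (0.18, unadjusted p = 0.164), vehicle pool 1 (0.24, unadjusted p = 0.0980) or vehicle pool 2 (0.21, unadjusted p = 0.124). Under Cpd-60 in HIP Ctss read 6.95, 6.88 and 6.82, above vehicle at 6.81, 6.80 and 6.74 in every pool, with a difference of 0.10 (95% confidence interval -0.06 to 0.26; 0.30 after background correction).

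Csf1r, the growth factor receptor, showed no separation of a drug from vehicle. Differences of its main probe ran from -0.04 to 0.04 in PFC, from 0.03 to 0.14 in NAc and from -0.23 to -0.09 in HIP. The NAc intervals were wide (for Cpd-60, -0.63 to 0.69), and each NAc group spanned both BeadChips, whose part in this width was not tested. Within BeadChips 1 and 2 of NAc, Csf1r was at -0.00 and 0.10 for Cpd-60, -0.13 and -0.08 for SAHA and -0.03 and -0.16 for CI-994. The positive NAc values of SAHA and CI-994 thus did not hold within either BeadChip. P2ry12 was tested in NAc (0.05, 0.12 and 0.15 for Cpd-60, SAHA and CI-994) and HIP (-0.09, -0.10 and -0.14), with overlapping pools throughout. Within BeadChips 1 and 2 of NAc, P2ry12 was at 0.06 and 0.03 for Cpd-60, 0.01 and 0.09 for SAHA and -0.01 and 0.15 for CI-994. After background correction CI-994 gave 0.45 in NAc and -0.44 in HIP, where its pools read 7.02, 6.60 and 6.74 and the pool at 6.60 was not detected.

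Tmem119 and Aif1 likewise had no unadjusted limma p under 0.05 under any drug. In NAc the drug pools of Tmem119 spread more widely, from 7.01 to 7.54 under SAHA against 7.36 to 7.45 under vehicle. Tmem119 ran from -0.11 to -0.01 in PFC, from -0.07 to -0.03 in NAc and from -0.07 to 0.17 in HIP. Aif1 in HIP read 7.52, 7.66 and 7.65 under SAHA, above vehicle at 7.49, 7.38 and 7.43, a difference of 0.18 (95% confidence interval -0.04 to 0.39, unadjusted p = 0.105). The other Aif1 probe detected on 36 arrays gave -0.01 there (-0.18 to 0.16). In NAc Aif1 was at -0.19 under Cpd-60 (-0.42 to 0.05) and at -0.17 under CI-994 (-0.41 to 0.07). Itgam was tested in HIP, where it ran from 0.02 to 0.06 near background.

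**Figure D4:**
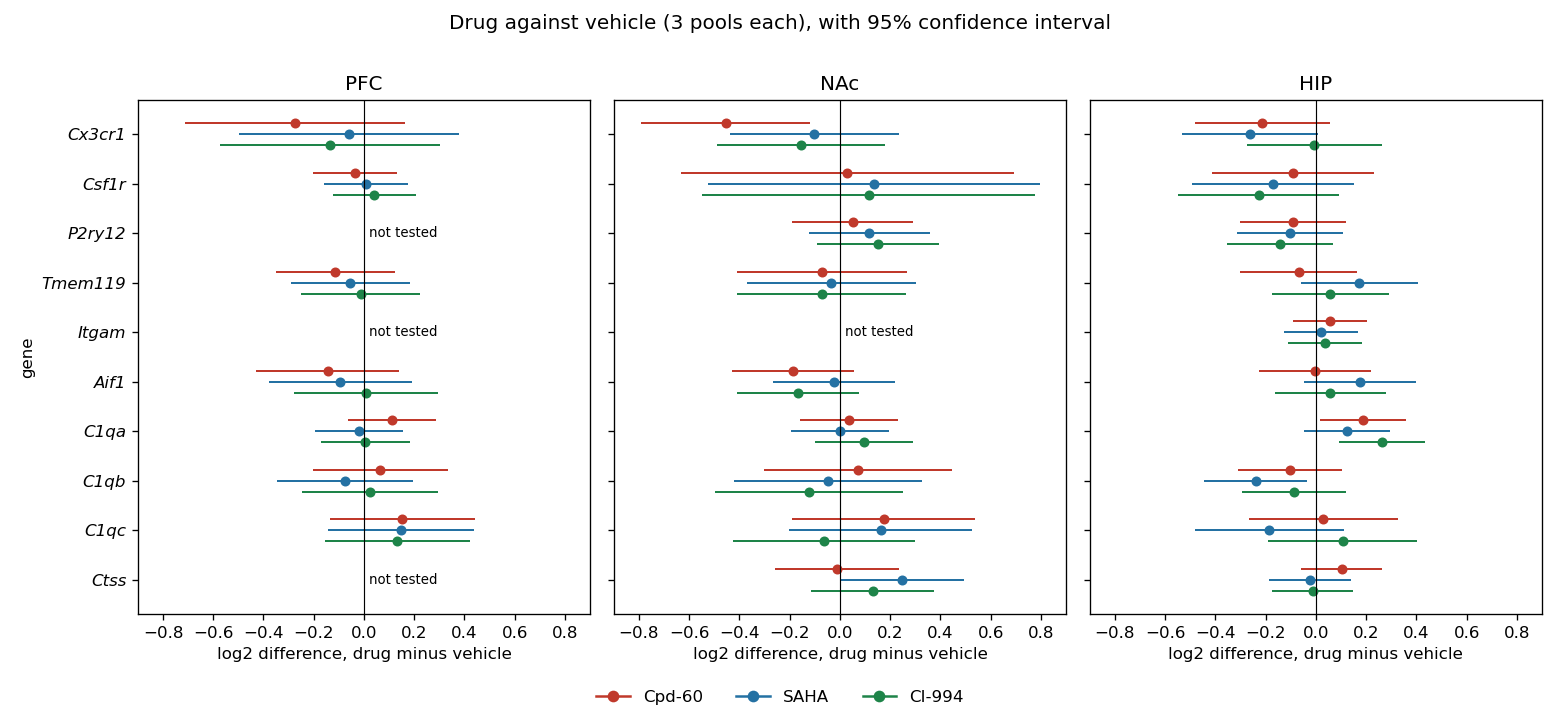
Log2 difference between drug and vehicle (x axis) for each gene (y axis) in PFC, NAc and HIP, as points with 95% confidence intervals from 3 pools a group. The intervals that lie on 1 side of 0 are Cx3cr1 under Cpd-60 in NAc, Ctss under SAHA in NAc, C1qa under Cpd-60 and CI-994 in HIP and C1qb under SAHA in HIP.

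Over the 3 regions together, 0 of 7 members passed the adjusted limma test for any drug, beside 0.571%, 0% and 0.0823% of all probes for Cpd-60, SAHA and CI-994. At an unadjusted p under 0.05 there were 2 for Cpd-60 (Cx3cr1 and C1qa), 0 for SAHA and 1 for CI-994 (C1qa), beside 10.6%, 3.34% and 4.42%. A test of whether the drug effect differed between regions called 0 of 7 members for each drug, beside 0% of probes, and 0 at an unadjusted p under 0.05, beside 1.97%, 3.75% and 1.3% for Cpd-60, SAHA and CI-994. Its smallest unadjusted p was 0.0950, for C1qa under CI-994.

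Other identity genes of microglia were called between regions about as often as all probes. Of 29 tested, 7 were higher and 1 lower in HIP than in PFC under vehicle, beside 27.3% of all probes. They included the integrin chain Itgb5 at 0.80 (adjusted p = 0.00221) and the transporter Slco2b1 at 0.61 (adjusted p = 0.00120). In NAc 7 were higher and 1 lower than in PFC, beside 20.8% of probes, among them the lysosomal protein Cd68 at 0.60 (adjusted p = 0.000466), Arhgdib at 0.69 (adjusted p = 0.000196) and the actin-binding Coro1a, lower at -0.90 (adjusted p = 7.41e-05). Between HIP and NAc, 1 was higher and 3 were lower, beside 17.9%. The median over the list was 0.02, 0.04 and 0.02 in the 3 comparisons, beside -0.03, -0.00 and -0.00 over all probes. Several of these genes are also expressed by other brain cells.

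The lists of 7 tested ligands and partners, 8 complement genes, 8 lysosomal proteases and 16 activation genes are to be read beside the same shares of all probes, 27.3% for HIP against PFC, 20.8% for NAc against PFC and 17.9% for HIP against NAc. Of the ligands and partners, 3 were lower and 1 higher in HIP than in PFC. Cx3cl1, the ligand of Cx3cr1, was lower in HIP than in PFC by -0.59 (adjusted p = 0.000759) and than in NAc by -0.66 (adjusted p = 0.000286), and Cd47, a signal that restrains engulfment, was lower than in PFC at -0.45 (adjusted p = 0.0217). Cst3, an inhibitor of cysteine cathepsins, was higher in HIP at 0.35 (adjusted p = 0.0108) and in NAc at 0.40 (adjusted p = 0.00673). Of 8 tested complement genes, 1 was lower in HIP and 1 in NAc, in both cases the C1 inhibitor Serping1 (-0.40, adjusted p = 0.0151, and -0.51, adjusted p = 0.00573). Of 8 other lysosomal proteases, Ctsb was higher in HIP than in PFC by 1.58 (adjusted p = 0.00194) and Lgmn lower at -0.32 (adjusted p = 0.0157). Of 16 activation and cytokine genes, 2 were lower in HIP and 2 in NAc than in PFC, and Lyz2, a lysozyme, was at -0.32 (adjusted p = 0.0240) and -0.41 (adjusted p = 0.00869).

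Under the drugs, 0 genes of these lists passed the adjusted limma test in any region. At an unadjusted p under 0.05 the identity list held 3 higher and 0 lower of 30 for Cpd-60 in PFC, 1 and 4 of 30 in NAc and 2 and 1 of 31 in HIP. For SAHA the counts were 0 and 0, 0 and 1, and 2 and 0, and for CI-994 1 and 2, 0 and 3, and 0 and 1. The shares of all probes beside them, in PFC, NAc and HIP, were 5.19%, 4.77% and 5.26% for Cpd-60, 2.25%, 2.05% and 9.37% for SAHA and 3.98%, 1.99% and 3.24% for CI-994. Fcer1g, an Fc receptor chain, was at 0.28 under Cpd-60 in PFC (adjusted p = 0.729) and Gpr34, a lysophospholipid receptor, at -0.37 under Cpd-60 in NAc (adjusted p = 0.999) and at 0.39 under SAHA in HIP (adjusted p = 0.515). Arhgdib was at 0.40 under Cpd-60 in NAc (adjusted p = 0.942). In HIP the phagocytic receptor Mertk was at 0.27 and the Fc receptor Fcgr3 at 0.24 under Cpd-60, and P2ry6, a nucleotide receptor, was at 0.28 under SAHA. Olfml3, a secreted protein of microglia, was at -0.28 and -0.36 under Cpd-60 in NAc and HIP and at -0.35 under CI-994 in NAc. Fcrls, an Fc receptor-like protein, was at -0.29 and -0.41 under CI-994 in PFC and NAc.

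Among the complement genes, the C4 genes held all the unadjusted p-values under 0.05. C4a was at 0.31, 0.39 and 0.48 under Cpd-60 in PFC, NAc and HIP (unadjusted p = 0.0237, 0.00622 and 0.000458), and C4b in HIP was at 0.50 under Cpd-60, 0.26 under SAHA and 0.31 under CI-994 (unadjusted p = 9.06e-05, 0.0117 and 0.00376). C4a and C4b are near-identical copies whose probes may share signal, so which copy carried the difference is uncertain. No adjusted p of these was below 0.05. Of the partners, 1 of 6 tested in NAc reached an unadjusted p under 0.05 with SAHA, Cx3cl1 at -0.35 (unadjusted p = 0.0165, adjusted p = 1.00). Of 16 activation genes in HIP, 1 was lower under SAHA at an unadjusted p under 0.05, Lyz2 at -0.32 (unadjusted p = 0.00320), and 1 was higher under Cpd-60, the costimulatory receptor ligand Cd86 at 0.17 (unadjusted p = 0.0247). Of 8 lysosomal proteases in HIP, Lgmn was at 0.17 under Cpd-60 (unadjusted p = 0.0342).

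Markers of lymphocytes, monocytes and granulocytes were mostly not detected, whereas some of border macrophages were. Of 7 lymphocyte genes, 5 to 7 were not detected on any array of a group, and their summed normalized intensity ran from 635 to 690 in all groups. Of 6 monocyte and granulocyte genes, 3 to 6 were not detected, with sums up to 650, the highest in PFC under Cpd-60 (620 to 650, against 577 to 597 under vehicle). Of 5 genes of border macrophages, Cd163 and Lyve1 were never detected, 2 were detected in all 3 vehicle pools of PFC, and sums ran from 507 to 547 in PFC under vehicle, from 548 to 581 in PFC under Cpd-60, and from 475 to 525 in NAc and HIP. Under vehicle, F13a1 was at least 1.13-fold higher in PFC than in HIP and at least 1.11-fold higher than in NAc, where it was not well above background. Mrc1, the mannose receptor, was at a mean of 7.03 in PFC and 6.74 in NAc (-0.28), and all 3 differences passed the adjusted limma test. In 6 of the 9 drug comparisons a blood gene or more was lower at an unadjusted limma p under 0.05, with 0 past the adjusted test. Drugs in a region share its vehicle arrays. The share of all probes, in either direction, ran from 1.99% to 9.37%, which is a share per probe and not per comparison. In NAc blood genes read lower on BeadChip 2, Hba-a1 at a mean of 11.29 against 11.95, Hbb-b1 at 11.78 against 12.22 and Alas2 at 6.71 against 6.93. The part of the BeadChip in the blood values was not tested, nor was that of the cells these lists mark in the values of the shared myeloid genes.

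Members did not move as 1 block from array to array. After the mean of each group was removed, Csf1r and Ctss had a Pearson r of 0.73 over 36 arrays and Csf1r and P2ry12 0.62, while Csf1r and C1qb had -0.68. With each BeadChip's mean also removed these were 0.38, -0.05 and -0.31. For C1qc, r went from 0.46 to 0.62 with Cx3cr1 and from 0.55 to 0.51 with Tmem119. The points share pools of mice and BeadChips, and the values are a description. Over the 12 group means, the centred mean of the 10 members ran from -0.04 to 0.06, and the genes most like it among 19438 other probes by Pearson r were Phrf1 (0.92), 4932425I24Rik (0.85), LOC385989 (0.85) and Hist1h2ag (0.85).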

How the data were processed

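Total RNA of each pool was labelled as biotin-cRNA and hybridised to Illumina MouseWG-6 arrays. The authors deposited for each probe a non-normalized intensity and a detection p-value, with no background subtracted. In R 4.3.3 with limma 3.58.1, intensities were quantile-normalized over the 36 arrays, floored at 1 and log2-transformed. Probes entered a test if any group had a detection p-value of 0.2 or less on each of its 3 arrays. Linear models with empirical Bayes moderation were fitted over the 4 treatments of a region, over vehicle arrays for regions and over all arrays, with the pool of mice as a random block, for averages and drug-by-region terms, with Benjamini-Hochberg adjustment over all tested probes (threshold 0.05). Drug averages over the 3 regions were added after seeing the data. For a drug within a region, the p-values measure the spread between pools of 2 mice. The fit of the vehicle arrays between regions had no pool block. In the fits of all arrays the correlation within a pool was -0.005, so arrays of the same mice counted almost as independent.

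The members and gene lists were chosen with earlier results of these data known. All 10 members were named. From each list and comparison, up to 3 genes with the smallest p were eligible among those past the adjusted test or, with none, among those past an unadjusted p of 0.05 whose pools did not overlap between groups. Some eligible genes are not reported here. Where several probes of a gene were tested, the brightest by mean stood for it. The study's methods describe 27 arrays, and 36 were analysed. In the second Cpd-60 pool of each region the description names mice 1 and 2 where title and source name mice 3 and 4, which were followed. This is the pool that weighed on the Cx3cr1 average. Replicate numbers were checked for pairing: deviations of same-numbered pools of different treatments correlated from -0.45 to 0.87, with 32 of 54 pairs over 0.1. For vehicle and Cpd-60 all 3 pairs were over 0.1 in PFC and NAc, but not in HIP. Same-numbered pools of vehicle and Cpd-60 also shared a BeadChip, as did those of SAHA and CI-994. Across these sets, only the pools numbered 2 lay on different BeadChips. Where the BeadChip was shared, the check cannot tell pairing from the BeadChip. The main model had no replicate block, and the fit with one is given as an alternative. Across regions the numbers name the same mice, and the vehicle deviations correlated from -0.48 to 0.32 (2 of 9 over 0.1). In data made with 200 probes changed by 1 log2, the test recovered 94.5%, 82.5% and 92.5% for Cpd-60 in PFC, NAc and HIP and 91% for HIP against PFC. False calls were 16, 9, 9 and 6. The changed probes were detected on all 36 arrays, and the noise was independent between arrays, with no BeadChip or pool effect. No drug difference of a member was as large as 1 log2, so these rates do not give the recovery of the members' smaller differences. Alternatives were the neqc background correction, a stricter and no detection filter, the 27 arrays of the methods, other probes, a BeadChip block, a replicate block, the methods' analysis of variance and leaving out each pool.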

Additional observations from a re-analysis of the deposited data

How the results depend on the processing

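No adjusted call of a member appeared in the 9 drug comparisons under any alternative. Of the counts of members called, 323 alternative values stayed within 1.5 times the main one and 8 moved. For HIP against PFC under vehicle the count of 2 became 1 with BeadChip as a random block and ran from 0 to 4 with each vehicle pool left out. For NAc against PFC the count of 0 became 2 over the 4 treatments, and for HIP against NAc it became 1 over the 4 treatments and ran from 0 to 3 with each pool left out. For Cpd-60 over the 3 regions the count of 0 ran from 0 to 1 with each pool left out. The other Csf1r probe reversed the HIP against PFC difference, to -0.11. The causes of these shifts were not tested.

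With the replicate block the count was 0 in each of the 9 drug comparisons and 2 for HIP against PFC, and no call of a member changed. Of single-gene values, 2209 kept direction and side of the threshold, and 134 changed direction with no call in either fit. A further 11 became called, 6 lost the call and 1 changed direction with a call in 1 of the fits. P2ry12, Ctss and Itgam lay near background, where the signal limits what a difference can show.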
